A study of Arabidopsis thaliana with 18 samples.

Results

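The transcripts described here are those that read lower in the bru1 mutant of Arabidopsis thaliana than in its Columbia wild type (Col) whether or not the seedlings had been heated. Members were chosen by their measured genotype difference. On Affymetrix ATH1 arrays, which report 1 expression value per probe set on a log2 scale, a probe set was a member when the mean of 3 bru1 arrays lay at least 0.8 below the mean of 3 Col arrays in each of 3 conditions. On a linear scale that limit is a 1.74-fold lower value. The limit was met by 61 of 22746 probe sets, and 59 are members after 3 genes were left out by name. Of those 3 genes, AT5G64120 and AT4G22490 met the limit and AT4G08780 did not. The mirrored limit, at least 0.8 higher in bru1 in every condition, was met by 219 probe sets. Among the 59 members, 25 stand for 1 gene each, 5 match several genes, and 29 are unnamed here because the gene table used does not list them.

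Both genotypes were sampled as 4-d-old seedlings grown on GM medium with 1% glucose, in 16 h of light at 23 °C and 8 h of dark at 21 °C. The 6 groups of 3 biological replicates were untreated Col and bru1 (control), and Col and bru1 at 4 h and at 52 h after acclimation. Acclimation meant 1 h at 37 °C, a pause of 1.5 h at 23 °C and 45 min at 44 °C, begun 6 h after dawn. The control was taken at the 4 h time point, so the 52 h seedlings were also older than their control, and age and time after heat cannot be told apart. The labels name neither the bru1 allele nor a batch. They do not say which tissue was taken beyond seedlings, and whole seedlings mix many cell types, so that fewer cells of a type and less RNA per cell cannot be told apart in any value below.

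BRU1, also called TONSOKU, is a nuclear protein needed to maintain the genome when DNA is replicated, and its mutants have disturbed meristems. Acclimation is a heat treatment that plants survive and that raises their tolerance of later heat. The named members come from several protein families. Among them are secreted and defence-related proteins such as a lectin, a defensin-like protein and a subtilase. Others are enzymes that use peroxide or repair oxidised residues, and membrane transporters. Class III peroxidases are secreted haem enzymes that oxidise phenolic compounds in the cell wall and take part in lignin formation, wall loosening and defence. No probe set for BRU1 itself could be named with 1 gene, and its level is not analysed here.

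Array medians lay between 6.48 and 6.55, and arrays of the same group correlated with r from 0.982, in Col at 52 h, to 0.996. The leaf markers RCA (Rubisco activase) and LHCB4.1 (a light-harvesting protein), 2 of 24 listed, averaged 13.7 in every group. Of 17 root markers 2 had a probe set that stands for 1 gene. Their mean level was 9.54, 8.43 and 8.99 in Col and 8.97, 7.91 and 8.43 in bru1 at control, 4 h and 52 h. The beta-glucosidase PYK10 differed by -0.07, -0.44 and -0.41 between bru1 and Col, of which the 4 h value passed limma's test (adjusted p = 0.033). The root gene sks15 differed by -1.07, -0.59 and -0.70, and its control and 52 h values passed (adjusted p = 0.0044 and 0.048). Its bru1 means at 4 h and 52 h lay below 4.39, the highest lower quartile of any array. The sizes of its differences at those times are therefore lower bounds, and the bru1 root means given above include it. Both root markers had negative differences, as the members did, but that of PYK10 in the control was near 0 (limma, adjusted p = 0.81). The 3 root hair genes given further below had differences above 0 in every condition. The part of the root markers in the members' values was not tested. Probe sets at the 3' and 5' ends of a transcript report RNA integrity, and the 3' minus 5' value of GAPDH was higher in bru1 by 0.26 in the control and 0.22 at 52 h, without overlap of the arrays (exact permutation p = 0.1 each, two-sided, the smallest that 3 against 3 allows). Its 4 h value was -0.02 (exact p = 0.8). That of actin was higher by 0.30 in the control and 0.23 at 4 h, also at the exact p of 0.1, and was -0.16 at 52 h (exact p = 0.5). The 25S ribosomal RNA control differed between bru1 and Col by -0.37 in the control (exact p = 0.2), by 0.43 at 4 h without overlap (exact p = 0.1) and by -0.09 at 52 h (exact p = 0.5). The part of these controls in the members' values was not tested either.

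The genotype differences chose the members and are therefore given as a description. In the control the members' bru1 minus Col differences had a median of -1.14 and ran from -3.03 to -0.81. At 4 h the median was -1.24 with a range of -3.25 to -0.81, and at 52 h it was -1.33 with a range of -4.15 to -0.80. Over all 22746 probe sets the medians were -0.04, -0.02 and -0.02. The difference was widest at 52 h in 31 members, at 4 h in 17 and in the control in 11. These counts were not made over all probe sets, and no trend between the conditions is read from them. For 30 members the 3 differences lay within 0.5 of each other, and for 6 they spread by 1 or more.

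In limma's test, 56, 54 and 56 of the 59 members were called lower in bru1 at control, 4 h and 52 h, against 5.1%, 6.96% and 5.66% of all probe sets, and nothing is read from this because the rule used these contrasts. All 3 bru1 arrays lay below all 3 Col arrays for 59 members in the control, 57 at 4 h and 55 at 52 h, where the shares over all probe sets were 17.5%, 17.3% and 13.2%. In every condition at once this held for 53 members, against 3.25% of all probe sets. The 6 with an overlap in a condition were AT3G15357, AT5G23840 and 4 unnamed probe sets. In 4 members, AT2G33850, AT5G38030 and 2 unnamed probe sets, a bru1 mean lay below 4.39, the highest lower quartile of any array, and the size of such a difference is only a lower bound. In 1 of the unnamed probe sets the Col mean at 4 h lay below 4.39 too, and the size of that difference cannot be read.

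**Figure D1:**
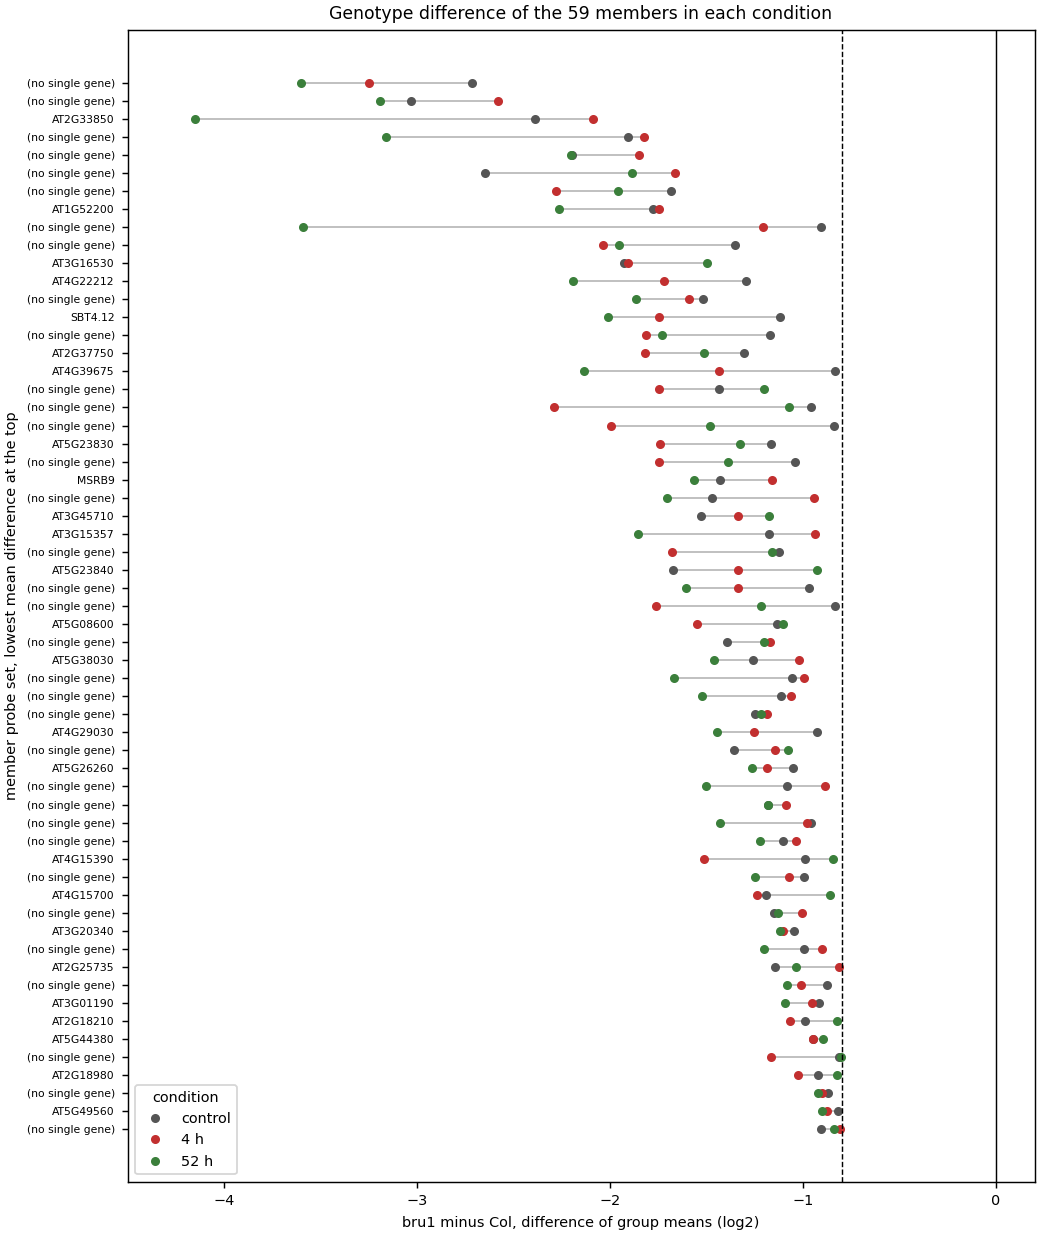
Genotype difference (bru1 minus Col, difference of means of 3 arrays, log2, horizontal axis) of each of the 59 member probe sets, ordered from the lowest mean difference at the top, with 1 point per condition. All points lie at -0.80 or below by the choice of members, and the lowest, AT2G33850 at 52 h, lies at -4.15.

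Averaged over the 59 members, the level in Col was 8.38 ± 0.10 in the control, 7.78 ± 0.09 at 4 h and 8.23 ± 0.14 at 52 h (SD, n = 3 arrays). In bru1 it was 7.09 ± 0.16, 6.37 ± 0.16 and 6.68 ± 0.13. Every bru1 array lay below every Col array of any condition, which the choice of members sets within each condition.

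**Figure D2:**
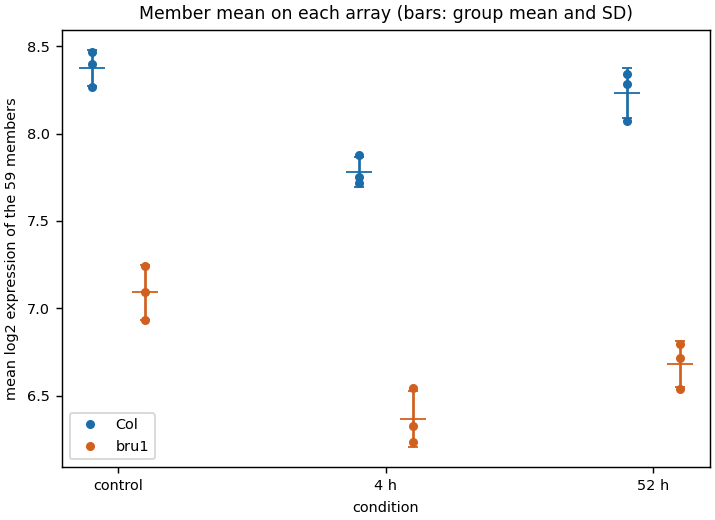
Mean log2 expression of the 59 members on each of the 18 arrays (points), with the group mean and SD of 3 arrays (bars), by condition and genotype. Both genotypes were lowest at 4 h, at 7.78 in Col and 6.37 in bru1, and the vertical axis does not start at 0.

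The secreted and defence-related members come first, and a PLAC8 and a TRAF-like family protein are listed beside them without that label. AT1G52200, a cysteine-rich protein of the PLAC8 family, read 8.88, 9.12 and 9.14 on the Col control arrays, 9.74, 9.49 and 10.06 at 4 h, and 8.72, 8.64 and 8.71 at 52 h. Its bru1 arrays read 6.97, 7.43 and 7.40, then 7.96, 8.06 and 8.04, then 6.51, 6.08 and 6.69. The groups did not overlap in any condition, and the differences were -1.78, -1.75 and -2.26 (SE 0.16), a mean of 3.81-fold lower. After heat it rose by 0.74 at 4 h over both genotypes (limma, adjusted p = 2.7e-05), with 0.72 in Col and 0.75 in bru1, and lay 0.59 below the control at 52 h (adjusted p = 0.00095).

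AT3G16530, a legume-lectin family protein known to respond to chitin, stood at 9.87, 9.37 and 9.86 in the Col control, at 6.69, 6.30 and 7.15 at 4 h, and at 8.18, 8.31 and 7.24 at 52 h. In bru1 the values were 7.45, 8.31 and 7.56, then 4.77, 4.54 and 5.10, then 6.32, 6.01 and 6.91. Every bru1 array was below every Col array of its condition, by -1.93, -1.91 and -1.5 on average (SE 0.30). This lectin had the largest fall of any member at 4 h, with a log2 change of -2.98 (SE 0.21, adjusted p = 2.6e-09), which was -2.99 in Col and -2.97 in bru1. At 52 h its change from the control was -1.58 (adjusted p = 3.9e-05).

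AT4G22212, a defensin-like protein, read 8.32, 8.65 and 8.57 in the Col control, 7.94, 7.63 and 7.03 at 4 h, and 8.83, 8.90 and 8.04 at 52 h. The bru1 arrays gave 7.01, 7.17 and 7.47, then 5.68, 5.87 and 5.90, then 6.03, 6.25 and 6.92. Its differences of -1.30, -1.72 and -2.19 (SE 0.25) were without overlap. The defensin-like transcript fell by 1.19 at 4 h (adjusted p = 2e-05), and its 52 h change of -0.37 did not pass the test (adjusted p = 0.17).

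SBT4.12, a subtilase, which is a secreted serine protease, read 8.71, 8.80 and 9.12 in the Col control, 7.18, 6.58 and 7.47 at 4 h, and 8.20, 7.95 and 8.25 at 52 h. In bru1 it read 7.67, 8.03 and 7.58, then 5.33, 5.58 and 5.09, then 5.63, 6.36 and 6.38. The arrays of the genotypes stayed apart throughout, with differences of -1.12, -1.74 and -2.01 (SE 0.22). The subtilase fell by 2.11 at 4 h (SE 0.16, adjusted p = 4.4e-09) and was 1.19 below the control at 52 h (adjusted p = 3.2e-05).

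AT5G23830 and AT5G23840 encode MD-2-related lipid recognition proteins and are adjacent protein-coding genes on chromosome 5 in the RefSeq gene order. For AT5G23830 the Col arrays read 8.85, 9.26 and 9.32, then 8.42, 8.21 and 8.01, then 8.71, 9.02 and 7.73, and the bru1 arrays 7.73, 7.98 and 8.21, then 6.42, 6.77 and 6.24, then 7.21, 6.67 and 7.59. For AT5G23840 the Col arrays read 7.35, 7.22 and 7.70, then 6.68, 6.16 and 5.92, then 6.58, 6.81 and 5.40, and the bru1 arrays 5.51, 5.81 and 5.92, then 4.88, 5.06 and 4.81, then 5.69, 5.05 and 5.27. The genotypes overlapped in 1 place, where the third Col array at 52 h read 5.40 for AT5G23840, below the highest bru1 array at 5.69. Differences were -1.17, -1.74 and -1.33 for AT5G23830 and -1.68, -1.34 and -0.93 for AT5G23840. Both fell at 4 h, by 1.21 and 1.00 (adjusted p = 4.1e-05 and 0.00035), and both were lower at 52 h, by 0.74 and 0.78 (adjusted p = 0.01 and 0.0081). Since near-identical sequences can share probes, and the array files do not give probe sequences, a shared signal between these relatives was not tested.

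AT5G26260, a TRAF-like family protein, differed by -1.05, -1.19 and -1.26. It fell by 1.84 at 4 h (SE 0.15, adjusted p = 1.1e-08) and was 1.22 below the control at 52 h (adjusted p = 1.1e-05), with -1.77 and -1.12 in Col and -1.91 and -1.33 in bru1.

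**Figure D3:**
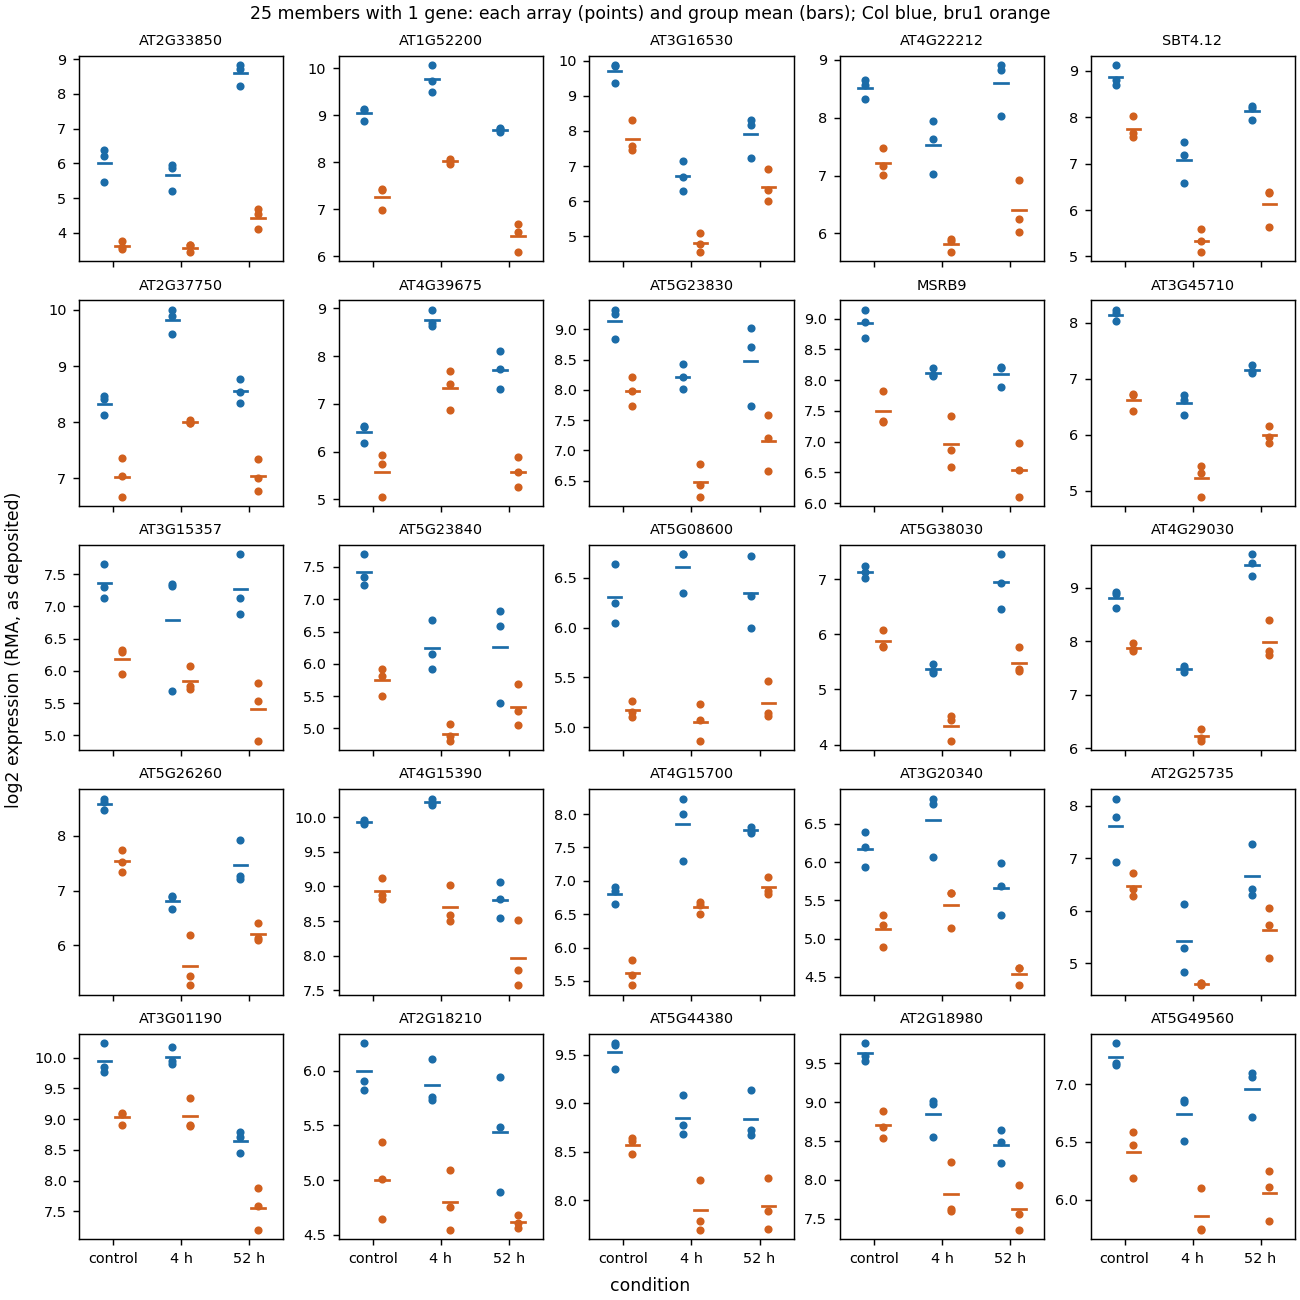
Log2 expression of each of the 25 members with a single gene on all 18 arrays, 1 panel per gene and 1 point per array, by condition (horizontal axis) and genotype (colour). Each panel has its own vertical scale, and bru1 points lie below Col points of the same condition in all panels except for the overlaps of AT3G15357 at 4 h and AT5G23840 at 52 h.

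Redox and metabolic enzymes formed the next group. MSRB9, a methionine sulfoxide reductase that repairs oxidised methionine, read 8.68, 8.94 and 9.14 in the Col control, 8.20, 8.09 and 8.07 at 4 h, and 8.19, 8.22 and 7.89 at 52 h. Its bru1 values were 7.33, 7.82 and 7.33, then 6.87, 7.42 and 6.59, then 6.11, 6.54 and 6.97. No bru1 array reached a Col array, and the differences were -1.43, -1.16 and -1.56 (SE 0.21). MSRB9 was 0.67 below the control at 4 h (limma, adjusted p = 0.0012) and 0.89 below it at 52 h (adjusted p = 0.00038).

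AT4G15700, a glutaredoxin, which reduces disulfides with glutathione, differed by -1.19, -1.24 and -0.86. It was above the control by 1.02 at 4 h (limma, adjusted p = 1.6e-06) and by 1.12 at 52 h (adjusted p = 4.1e-06). The change of this glutaredoxin at 52 h was 0.96 in Col and 1.29 in bru1. The class III peroxidases AT3G01190 and AT2G18980 differed by -0.92, -0.95 and -1.09, and by -0.92, -1.02 and -0.83. AT3G01190 was 1.39 below the control at 52 h (adjusted p = 3.7e-07) with a 4 h change of 0.04 (adjusted p = 0.84). AT2G18980 fell at both times, with changes of -0.83 (adjusted p = 2.9e-05) and -1.13 (adjusted p = 6.7e-06).

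AT4G15390, an acyltransferase of the BAHD family, differed by -0.99, -1.51 and -0.85. Like AT3G01190 it had a 4 h change near 0, of 0.03 (adjusted p = 0.9), and lay 1.05 below the control at 52 h (adjusted p = 2.7e-05). AT5G44380, a berberine-bridge-like FAD oxidase, differed by -0.95, -0.95 and -0.90 and fell by 0.68 at 4 h and 0.66 at 52 h (adjusted p = 9e-05 and 0.00051). AT5G49560, a putative methyltransferase, had the smallest mean difference of the named members, at -0.86. Its falls of 0.52 at 4 h (adjusted p = 0.00047) and 0.32 at 52 h (adjusted p = 0.042) passed the test, the latter not under every alternative.

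Both transporters fell at 4 h. AT3G45710, of the NRT1/PTR family whose members carry nitrate, peptides and other solutes, read 8.04, 8.17 and 8.23 in the Col control, 6.62, 6.34 and 6.71 at 4 h, and 7.14, 7.24 and 7.11 at 52 h. In bru1 it read 6.42, 6.73 and 6.71, then 5.32, 5.44 and 4.89, then 5.85, 5.96 and 6.16. The differences were -1.53, -1.34 and -1.18 (SE 0.14), with no overlap. It fell by 1.49 at 4 h (SE 0.10, adjusted p = 9.7e-10) and remained 0.81 below the control at 52 h (adjusted p = 1.5e-05).

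AT5G38030, a MATE efflux protein, which exports small organic compounds, stood at 7.03, 7.14 and 7.25 in the Col control, at 5.30, 5.46 and 5.34 at 4 h, and at 6.93, 7.46 and 6.47 at 52 h. The bru1 values were 5.79, 5.77 and 6.08, then 4.45, 4.52 and 4.07, then 5.37, 5.33 and 5.76. Groups stayed apart by -1.26, -1.02 and -1.46 (SE 0.19). The 4 h value is the lower bound named above. This MATE transcript fell by 1.65 at 4 h (adjusted p = 1.5e-08) and rose by 1.36 from 4 h to 52 h (adjusted p = 1.9e-07). Both sizes are lower bounds too, because they use the same bru1 mean at 4 h. AT5G08600 belongs to a family of U3 ribonucleoproteins that process ribosomal RNA. It read 6.24, 6.64 and 6.04 in the Col control, 6.74, 6.35 and 6.74 at 4 h, and 6.32, 6.00 and 6.72 at 52 h, while bru1 read 5.10, 5.26 and 5.15, then 5.23, 4.86 and 5.07, then 5.14, 5.11 and 5.47. Its differences were -1.14, -1.55 and -1.10 (SE 0.18), and neither heat change, 0.09 and 0.05, passed the test (adjusted p = 0.59 and 0.84).

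For 8 named members no role is given here. AT2G33850 had the largest mean difference of them. The Col arrays read 6.21, 6.39 and 5.45 in the control, 5.86, 5.19 and 5.94 at 4 h, and 8.82, 8.70 and 8.24 at 52 h, and the bru1 arrays read 3.76, 3.60 and 3.52, then 3.65, 3.44 and 3.64, then 4.10, 4.53 and 4.68. Its differences were -2.39, -2.09 and -4.15 (SE 0.23), and since the bru1 means in the control and at 4 h lay below 4.39, the first 2 are lower bounds. Over both genotypes it rose by 1.69 at 52 h (adjusted p = 1.2e-06), which was 2.57 in Col and 0.81 in bru1. The bru1 control lay below 4.39, so 0.81 and the mean of 1.69 are lower bounds. The rises of the 2 genotypes therefore cannot be compared. The 4 h change was -0.20 (adjusted p = 0.34), and its bru1 part cannot be read because both bru1 means lay below 4.39.

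AT4G39675 read 6.19, 6.51 and 6.54 in the Col control, 8.97, 8.63 and 8.70 at 4 h, and 7.72, 7.30 and 8.11 at 52 h. Its bru1 arrays gave 5.06, 5.94 and 5.74, then 7.42, 6.88 and 7.69, then 5.58, 5.89 and 5.25. The genotypes differed by -0.83, -1.44 and -2.13 (SE 0.24). This was the largest rise of any member at 4 h, of 2.05 (SE 0.17, adjusted p = 2.4e-08), and it was 0.65 above the control at 52 h (adjusted p = 0.012), with 1.30 in Col and 0.00 in bru1.

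AT2G37750 also rose at 4 h, by 1.24 (adjusted p = 1.6e-07), and its 52 h change was 0.12 (adjusted p = 0.57). The Col arrays stood at 8.12, 8.46 and 8.41, then 10.00, 9.90 and 9.58, then 8.55, 8.35 and 8.77, and the bru1 arrays at 6.68, 7.36 and 7.04, then 7.99, 8.04 and 7.99, then 7.01, 7.34 and 6.78. The genotypes stayed apart by -1.30, -1.82 and -1.51 (SE 0.17).

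AT4G29030 went down and came back. In Col it read 8.91, 8.62 and 8.88, then 7.49, 7.42 and 7.54, then 9.46, 9.62 and 9.21, and in bru1 7.85, 7.97 and 7.82, then 6.13, 6.20 and 6.36, then 7.82, 7.74 and 8.39. It fell by 1.49 at 4 h (adjusted p = 2.1e-09) and rose by 1.85 from 4 h to 52 h (adjusted p = 1.5e-10), to 0.37 above the control (adjusted p = 0.018). Without the second Col control array this last value was 0.32 (adjusted p = 0.051). Its genotype differences were -0.93, -1.25 and -1.44 (SE 0.15).

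AT3G15357 read 7.14, 7.65 and 7.30 in the Col control, 7.32, 5.69 and 7.34 at 4 h, and 6.88, 7.13 and 7.81 at 52 h, against 5.95, 6.29 and 6.33, then 5.71, 5.76 and 6.07, then 5.53, 4.91 and 5.81 in bru1. The genotypes overlapped at 4 h, where the second Col array at 5.69 lay below all bru1 arrays. Its heat changes, -0.46 and -0.43, did not pass the test (adjusted p = 0.13 and 0.25). AT2G25735 fell by 2.04 at 4 h (SE 0.23, adjusted p = 1.1e-06) and was 0.91 below the control at 52 h (adjusted p = 0.0099). AT3G20340 differed by -1.05, -1.10 and -1.12 and was 0.55 lower at 52 h (adjusted p = 0.01). AT2G18210, with differences of -0.99, -1.07 and -0.82, was 0.47 lower at 52 h (adjusted p = 0.041), which did not pass under every alternative.

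The unnamed members covered much the same range. Their mean differences ran from -3.19 to -0.85 with a median of -1.26, which was also the median of the 25 named members. The probe set 266353_at had the lowest mean of all 59 members, with Col at 7.64, 8.04 and 8.01, then 9.20, 9.42 and 8.29, then 8.49, 9.40 and 6.81, and bru1 at 4.91, 5.34 and 5.29, then 5.80, 5.89 and 5.48, then 4.12, 4.46 and 5.32. The probe set 254828_at followed, with Col at 9.44, 9.67 and 10.26, then 8.48, 8.40 and 7.69, then 10.03, 9.79 and 8.30, and bru1 at 6.14, 7.19 and 6.95, then 5.49, 6.12 and 5.22, then 5.94, 5.88 and 6.72. Neither overlapped between genotypes in any condition. The 5 probe sets that match several genes had mean differences from -2.30 to -1.03.

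At the edge of the limit, the members just inside had a smallest difference of -0.80, -0.81 and -0.81, the last being AT2G25735 with -1.15, -0.81 and -1.04. The 3 nearest outside had a smallest difference that rounds to -0.79, among them BCAT4, an aminotransferase of methionine-derived glucosinolate synthesis, with -0.91, -1.92 and -0.79. Of the genes left out by name, AT5G64120 differed by -2.62, -2.61 and -2.99 and AT4G22490 by -2.11, -1.14 and -4.36, of which the control and 52 h values are lower bounds in size because the bru1 means lay below 4.39, while AT4G08780 differed by 1.16, -0.22 and 0.29.

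How the members changed after heat was tested on the mean of both genotypes, a contrast that the choice of members did not use. At 4 h after acclimation 34 of the 59 members (57.6%) had fallen, against 23.9% of all probe sets, and 8 (13.6%) had risen, against 24.9%. At 52 h 23 members (39%) were lower than the control, against 10.9% of all probe sets, and 10 (16.9%) were higher, against 9.54%. These calls are from limma with Benjamini-Hochberg adjustment over 22746 probe sets. The members' median change was -0.67 at 4 h, with a range of -2.98 to 2.05, and -0.31 at 52 h, with a range of -1.74 to 1.69, while the median over all probe sets was 0.00 at both times. The members were read at a higher level than most probe sets. Their median Col level was 8.11, against 6.55 over all probe sets, and 91.5% of members lay above the latter. With probe sets near background left out, 30% of those kept fell and 31.8% rose at 4 h, and 13.9% and 12.3% did so at 52 h. The count that rose at 4 h was 5 without the first Col control array and also without the first Col array at 4 h.

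Falls of at least 2-fold were seen in 21 members at 4 h and 11 at 52 h, and rises of that size in 3 and 4. Among the named members the largest falls at 4 h were those of AT3G16530, SBT4.12, AT2G25735, AT5G26260 and AT5G38030 given above, and AT3G45710, AT4G29030 and AT5G23830 followed. Only 4 named members rose at 4 h, and these were AT4G39675, AT2G37750, AT4G15700 and AT1G52200. At 52 h the named members that were higher than the control were AT2G33850, AT4G15700, AT4G39675 and AT4G29030. The lowest at that time were AT3G16530, AT3G01190, AT5G26260, SBT4.12, AT2G18980 and AT4G15390. Of the 25 named members 14 fell at 4 h and 16 were lower at 52 h, and of the 29 unlisted probe sets 18 and 5.

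From 4 h to 52 h 25 members (42.4%) rose, against 21.6% of all probe sets, and 15 (25.4%) fell, against 25%. With probe sets near background left out, 27.3% of those kept rose and 32.1% fell. The joint counts below, and those by array, are set against all probe sets only. The median change between the times was 0.22 over the members and -0.01 over all probe sets. A fall at 4 h followed by a rise to 52 h was seen in 22 members (37.3%), against 16.8% of all probe sets, and the opposite course in 6 (10.2%), against 19.1%. Of the 34 that had fallen at 4 h, 15 were also below the control at 52 h, 14 did not pass the test there, and 5 were above it. Lower values at both times were therefore found in 25.4% of members and 6.52% of all probe sets. The contrast between the times shares the 4 h and 52 h arrays with the others. AT5G08600 and AT3G15357 were among 8 members that passed the test at neither time.

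Array by array, all treated arrays lay below all control arrays in both genotypes for 27 members at 4 h (45.8%), against 16.7% of all probe sets, and for 14 at 52 h (23.7%), against 5.9%. All treated arrays lay above in both genotypes for 6 at 4 h (10.2% against 16.4%) and for 7 at 52 h (11.9% against 5.32%).

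**Figure D4:**
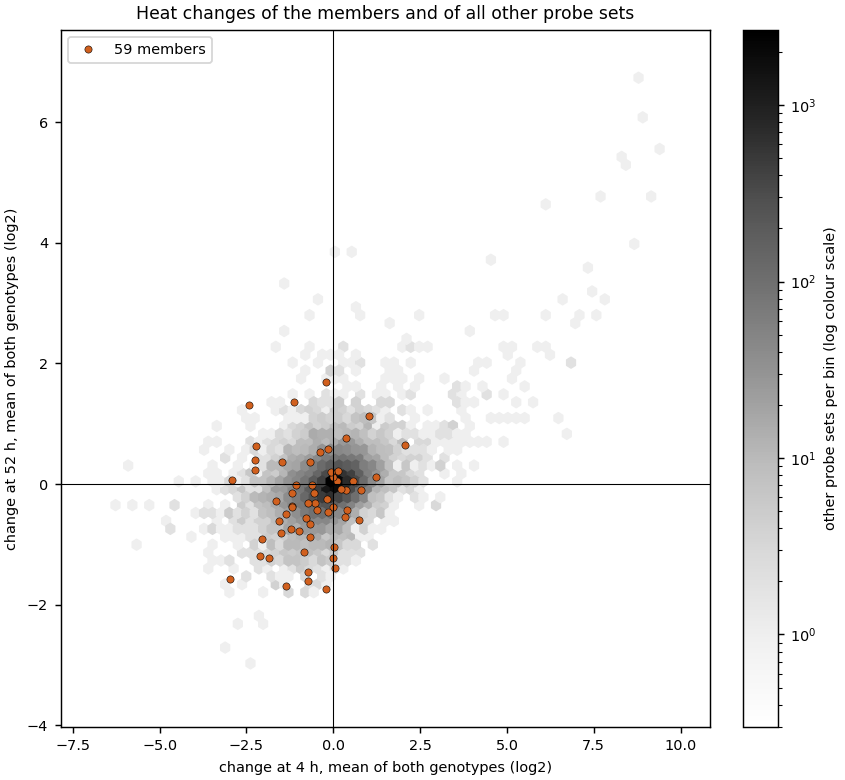
Change from the control at 4 h (horizontal axis) and at 52 h (vertical axis), each the mean of both genotypes on the log2 scale, for the 59 members (points) and all other probe sets (shading by number per bin, log colour scale). The members' medians are -0.67 and -0.31, and AT3G16530 lies farthest to the left at -2.98.

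The members were also compared with each other within the groups. The deviations of each array from its group mean, over 18 arrays, correlated between members with a mean r of 0.15 over 1711 pairs, 63.8% of them above 0, while the mean over all probe sets was 0.01. Among the 300 pairs of named members, AT5G23830 and its neighbour AT5G23840 had r = 0.82 and Spearman's rho = 0.76, and 0.68 by Pearson without the 2 arrays farthest from the median. The acyltransferase AT4G15390 had r = 0.86 with MSRB9 (rho = 0.87) and 0.85 with the peroxidase AT2G18980 (rho = 0.87), and these 3 pairs were chosen after their values were seen. Such values are a description, since all points come from the same 18 arrays and share their hybridisation and normalisation. Of the 25 named members, 8 (32%) lie on chromosome 5, 6 (24%) on chromosome 4, 5 (20%) each on chromosomes 2 and 3, and 1 (4%) on chromosome 1. These chromosomes hold 22.4%, 14.6%, 16.4%, 20.4% and 25.7% of all probe sets with 1 gene, in the same order.

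Gene lists were compared beside the members. A listed gene counts as measured here only if a probe set stands for it alone in the gene table used. The 29 unlisted members and the 5 that match several genes could therefore not be placed in any list. Of the 25 named members, only AT3G01190 and AT2G18980, both class III peroxidases, are in a list. The lists were chosen with earlier results of these data known. Of 74 class III peroxidases 55 were measured, and in bru1 13 were lower and 8 higher in the control (23.6% and 14.5%), 10 lower and 5 higher at 4 h (18.2% and 9.09%), and 8 lower and 9 higher at 52 h (14.5% and 16.4%). Of all probe sets, lower values were called for 5.1%, 6.96% and 5.66% and higher values for 5.24%, 6.45% and 5.84%. The family's median difference was -0.11, -0.08 and 0.01, and members of the family were called in both directions. In each group 16 to 24 of the 55 peroxidases had a mean below 4.39, and their differences enter this median. Some of them enter the counts too. AT5G19890 was called lower in the control with both means below 4.39, so the size of that difference cannot be read. In the control AT5G64110 and AT1G14550 were called lower with a bru1 mean below 4.39, and AT4G08780 higher with a Col mean below it. Without single arrays the higher count fell as low as 4 in the control, without the second Col array, and 1 at 4 h, without the first Col array or the second bru1 array at 4 h. With array weights it was 8 at 4 h, and at 52 h 17 were higher and 17 lower.

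Peroxidases that are not members included the ones with the largest differences. AT5G64120, left out by name, was the lowest of the family. AT5G39580 was lower in the control, by -1.0, and at 52 h, by -2.01 (adjusted p = 0.0016 and 1.3e-06), with -0.27 at 4 h (adjusted p = 0.4). AT2G37130 was lower in the control, by -0.99, and at 4 h, by -1.62 (adjusted p = 0.0041 and 4.5e-05), with -0.63 at 52 h (adjusted p = 0.054). In the opposite direction, AT3G49960 was higher by 1.18, 1.15 and 1.87 (adjusted p = 0.023, 0.023 and 0.00077), and as its Col mean at 4 h lay below 4.39, the second value is a lower bound. After heat 37 of the 55 peroxidases (67.3%) fell at 4 h, against 23.9% of all probe sets, and 24 (43.6%) were lower at 52 h, against 10.9%, and the member AT2G18980 was among them at both times.

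**Figure D5:**
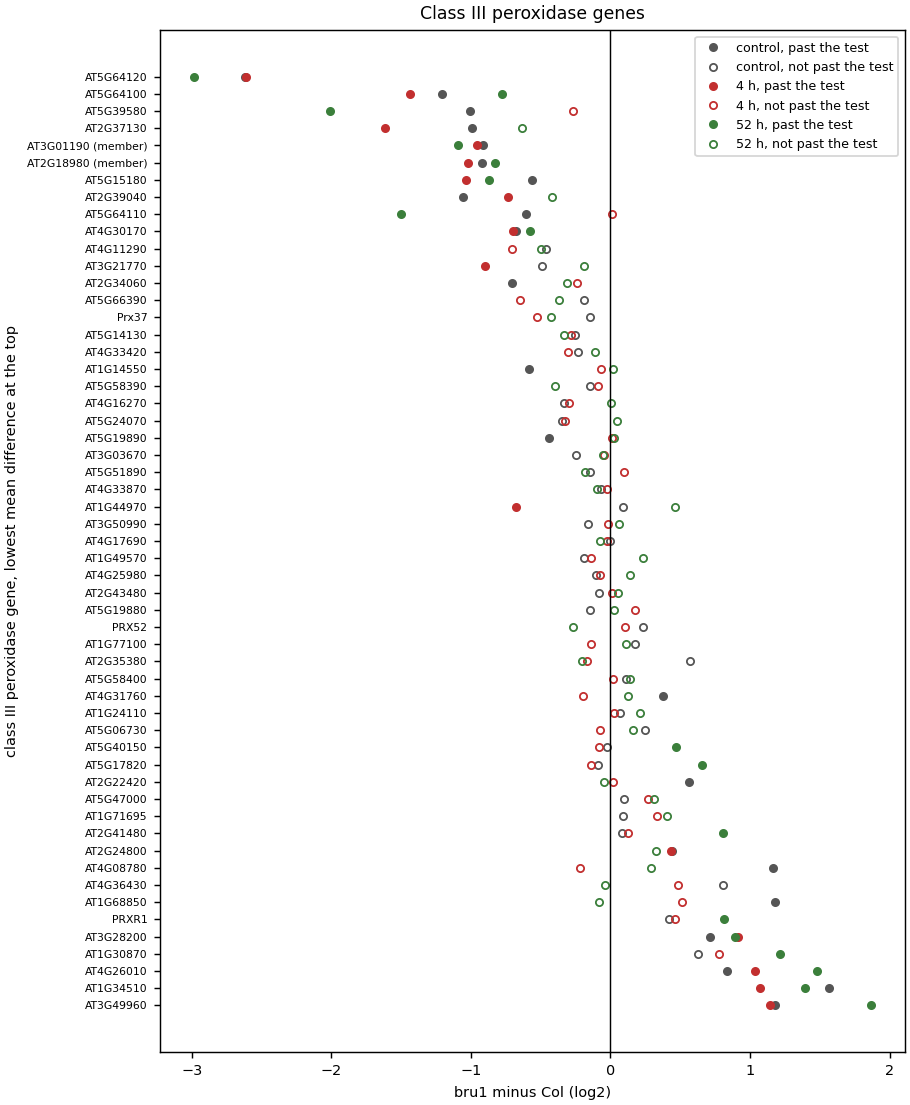
Genotype difference (bru1 minus Col, log2, horizontal axis) of the 55 measured class III peroxidases in each condition, with filled points where limma's adjusted p is below 0.05. The members AT3G01190 and AT2G18980 lie between -0.83 and -1.09, and the family runs from -2.99 for AT5G64120 to 1.87 for AT3G49960.

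Of 32 lipid transfer and proline-rich hybrid proteins 10 were measured. None of these 10 is a member, and the unnamed members could not be matched to the list. AT4G22490, which met the limit and was left out by name, belongs to this list. In the control 3 were lower (30%), at 4 h 1 was lower (10%) and 2 were higher (20%), and at 52 h 4 were lower (40%), to be read against the shares of all probe sets above. AT4G22490 was the 1 lower at 4 h and had the largest difference of the list in the control and at 52 h. AT4G22460 differed by -1.10 in the control (adjusted p = 0.00058) and AT4G12490 by -1.58 at 52 h (adjusted p = 0.035). Of 23 expansins and xyloglucan endotransglucosylases, which loosen and remodel cell walls, 10 were measured, and 2 were lower in the control (20%), 1 lower and 1 higher at 4 h (10% each), and 3 lower at 52 h (30%). EXPB3 differed by -1.01 in the control (adjusted p = 0.031) and XTH18 by -0.83 at 52 h (adjusted p = 0.025). XTH21 was the 1 lower at 4 h, where both its means lay below 4.39, so the size of that difference cannot be read. It was also called lower in the control, where its bru1 mean lay below 4.39 and the size is a lower bound. In each group 1 to 4 of the 10 lipid transfer genes had a mean below 4.39. Among them was AT1G62500 in bru1 at 52 h, when it was called lower. These counts rest on few genes. At 52 h the lower lipid transfer count was 2 without the first or the second bru1 array. The lower expansin count was 0 without the first Col or the first bru1 array of that time. The cause of these drops was not tested. At 4 h the higher lipid transfer count was 0 or 1 without most single arrays, and the expansin counts moved by 1 gene.

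Of 14 root hair genes 3 were measured, and 2 of them, the expansin EXPA18 and the peroxidase AT3G49960 of the family above, were higher in bru1 in each condition. EXPA18 differed by 0.88, 0.98 and 1.08 (adjusted p = 0.023, 0.01 and 0.0058). The expansin EXPA7 differed by 0.02, 0.39 and 0.38 and did not pass the test (adjusted p = 0.97, 0.33 and 0.35). Without the second Col control array, or without the second or the third bru1 control array, neither passed in the control, and without the first Col array at 4 h neither passed there. Of 30 glucosinolate genes 4 were measured, with 1 lower in the control and 2 lower at 4 h. At 4 h these were BCAT4 (-1.92, adjusted p = 0.0083) and AT2G31790 (-0.33, adjusted p = 0.016), the latter also the 1 in the control (-0.28, adjusted p = 0.048), a call that was lost without most single arrays.

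Of 19 salicylic acid and defence genes 2 were measured, and GRX480 differed by 0.07, -0.15 and 0.01 and SAG101 by 0.17, 0.00 and 0.24, with adjusted p from 0.24 to 1. SAG101 had a mean below 4.39 in every group except bru1 at 52 h. Its control and 4 h differences therefore cannot be read, and its 52 h difference is a lower bound. The means of GRX480, from 4.60 to 4.87, were not far above that level. The 1 of 12 jasmonate genes measured, the defensin PDF1.2, differed by -0.03, 0.08 and 0.16 (adjusted p = 0.92, 0.77 and 0.47). The clock gene GI, 1 of 15, was 1.03 higher in bru1 at 4 h (adjusted p = 0.0038), with -0.19 and 0.40 in the control and at 52 h (adjusted p = 0.66 and 0.27).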

How the data were processed

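The authors deposited log2 expression values for the 18 ATH1 arrays. Per the submitters' processing notes they come from RMA, whose version is not given in the sources used here. RMA corrects the background and gives all arrays much the same distribution, which would hide a shift in total RNA. No scaling was added. A group-mean model over all arrays was fitted by lmFit and eBayes of limma 3.58.1 (R 4.3.3), with 12 residual degrees of freedom and without the 64 AFFX controls. P-values were adjusted by Benjamini-Hochberg over 22746 probe sets, with a threshold of 0.05, and differences without a named test are group means of 3 arrays. The steps were tested on simulated data. The precision is limited by 3 arrays per group. Deviations of same-numbered arrays correlated with r from -0.51 to 0.22, and 10 of 45 were above 0.1. Such correlations cannot decide whether the replicate numbers pair the samples, and the model did not use the numbers.

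Names come from a probe annotation supplied beside the arrays, which gives 1 gene for 13513 probe sets, and from RefSeq genes on TAIR10.1, used for names and gene order only. The array files name no genome build, so no coordinates are given. For a gene with several probe sets, the one with the highest mean was read in the lists. The members and lists were chosen with earlier results of these data known. By a fixed rule any member with 1 gene may be named, array values are given for the 15 lowest mean differences, heat changes for up to 8 called each way, 3 members either side of the limit, and up to 4 genes per list by the size of the difference. Other gene values were chosen after they were seen. Alternatives were other limits, group medians, renewed quantile normalisation, median centring, a filter on dim probe sets, eBayes with trend and robust, array weights, the replicate number as a block and each array left out in turn.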

Additional observations from a re-analysis of the deposited data

Results flagged for a closer look

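The unnamed member 253660_at, chosen after its values were seen, moved in opposite directions in the 2 genotypes at 52 h. Its Col arrays read 7.46, 7.24 and 7.64 in the control and 8.74, 8.48 and 8.68 at 52 h, a change of 1.19. In bru1 they read 6.16, 7.12 and 6.34 in the control and 4.56, 5.34 and 5.24 at 52 h, a change of -1.49. At 52 h every Col array lay above and every bru1 array below the control arrays of its genotype. At 4 h the Col arrays read 7.21, 7.16 and 6.77 and the bru1 arrays 5.58, 6.02 and 5.93, below the control arrays in both genotypes. The difference between the genotypes was not tested, because the contrasts that chose the members are part of it.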

How the results depend on the processing

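The number of members depends on the limit, with 130 probe sets at -0.6 and 32 at -1. Group medians gave 62, of which 49 are shared with the 59, renewed quantile normalisation 60 (57 shared) and median centring 57 (56 shared). Leaving out single arrays gave 53 to 67, and 36 members stayed whichever array was left out. Array weights, which gave the first Col array at 52 h a weight of 6.28 and the third 0.33, called more probe sets. At 52 h after heat 3725 were higher and 3866 lower, and in bru1 1942 were lower in the control, 2329 higher and 2475 lower at 4 h, and 3868 higher and 4594 lower at 52 h.

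With single arrays left out, the members that rose at 4 h numbered 5 to 10. All probe sets called in bru1 numbered 788 to 1432 higher and 626 to 1470 lower in the control, 864 to 1655 and 793 to 1793 at 4 h, and 849 to 1714 and 700 to 1714 at 52 h, in each case from fewer arrays. The lowest came without the first Col array (788) and the second (626) in the control, without the first Col array (864) and the third bru1 array (793) at 4 h, and without the first bru1 array (849 and 700) at 52 h. The members that fell at 4 h stayed at 34 to 35 and those lower at 52 h at 19 to 26. Small changes that passed no test turned sign for AT3G01190 at 4 h (-0.038 to 0.11) and AT4G15390 at 4 h (-0.053 to 0.076), and for AT5G08600 at 52 h (-0.041 to 0.14).

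Of 18 named members called at 4 h all 18 passed under every alternative run, and so did 17 of 20 at 52 h. The 3 that did not were AT5G49560 and AT2G18210, whose adjusted p was 0.056 and 0.055 with median centring and above 0.05 without several single arrays, and AT4G29030 as given above. AT3G20340, at 0.34 and adjusted p = 0.057 at 4 h, passed under 10 settings. The cause of these shifts was not tested. Whether the replicate numbers pair the samples was not decided. With the number as a replicate block 9 members rose and 34 fell at 4 h, 10 and 25 at 52 h, and 25 and 15 between the times. The precision rests on 3 arrays per group, and probe sets near background have only a bound.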
